A study of Mus musculus with 3 samples.

Results

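The 42 genes described here encode the machinery of mitosis. They cover its kinases, the chromosomal passenger complex, the spindle assembly checkpoint, and the centromere and kinetochore. They also cover partners of the anaphase-promoting complex (APC/C), proteins of anaphase, condensin, and the proteins of the spindle and of cell division. They were taken from a list of symbols and found on the array by matching the RefSeq accession of each probe to a mouse gene, which gave all 42 of them, with 55 probes, among 20142 named genes. RNA came from 3T3-L1 cells, a clonal mouse line of fat cell precursors with no stated genetic change, harvested 2, 8 and 20 days after adipogenic differentiation was induced. The study asked how gene expression shifts as adipocytes enlarge. Each day was measured on 1 Agilent 1-colour array, so no difference between days could be tested, no p-value is given, and the errors below are technical. The composition of the induction medium is not given in the sources used here.

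Mitosis separates duplicated chromosomes. The kinetochore, built on the centromere, ties each chromosome to spindle microtubules, and the spindle assembly checkpoint holds back the APC/C until every chromosome is attached. The APC/C then marks securin and the mitotic cyclins for destruction, which frees separase to cut the cohesin that joins sister chromatids. Transcripts of most of these proteins are made in G2 and M phase of cycling cells and are scarce in cells that have left the cycle. Confluent 3T3-L1 cells are known to re-enter the cycle briefly after induction, a phase called mitotic clonal expansion, before they stop dividing and fill with lipid.

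The arrays were alike in depth: 55.3% to 56.9% of the 43020 non-control spots and 12490 to 12837 genes were well above background, and 0 spots were saturated. All 10 adipocyte markers examined were well above background on every day, with a summed level (linear, relative to each array's 75th percentile) of 794, 1789 and 1229 on days 2, 8 and 20, and so were all 9 markers of preadipocytes and fibroblasts, at 192, 308 and 497. Such sums weigh bright probes most. On day 8 against day 2, 5 of the 10 adipocyte markers were at least 2-fold higher, beside 13.8% of all genes. Another 2 lay below their day 2 level, and log2 differences ran from -0.40 (Cebpa) to 6.46 (Cfd). On day 20, 3 of the 10 lay below their day 2 level. Of 7 macrophage markers, 3 were well above background on each day, with the defining genes Adgre1 and Ptprc below it (summed level 9.02, 11.5 and 6.22). Levels below are log2 of the processed intensity minus the array's 75th percentile, so 0 is the brightness that 75% of non-control probes did not exceed. They can be compared between days for a gene, but not between genes, whose probes differ in sensitivity.

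Mitotic genes were far lower on day 8 than on day 2. Of the 42, 38 were well above background on both days, and 36 of these were at least 2-fold lower on day 8 and 0 at least 2-fold higher. Of all 12045 genes so measured, 12.9% passed 2-fold on the lower side and 13.8% on the higher side. At least 4-fold lower were 32 of the 38 members, against 3.19% of all genes. The median log2 difference of the members was -4.11, beside -0.06 for all genes, and 1% of all genes lay below -3.57. Differences ran from -5.68 for Spc25 to 0.75 for Anln, with a median technical SD of 0.0764 over all genes. With normexp, another background correction, 36 members were still at least 2-fold lower and 31 at least 4-fold lower, with a median of -3.29, and the folds of 12 members moved by more than 1.5 times. Their normexp values are given below. Fewer cells in division and less of these transcripts per cell cannot be told apart in RNA from a whole culture.

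**Figure D1:**
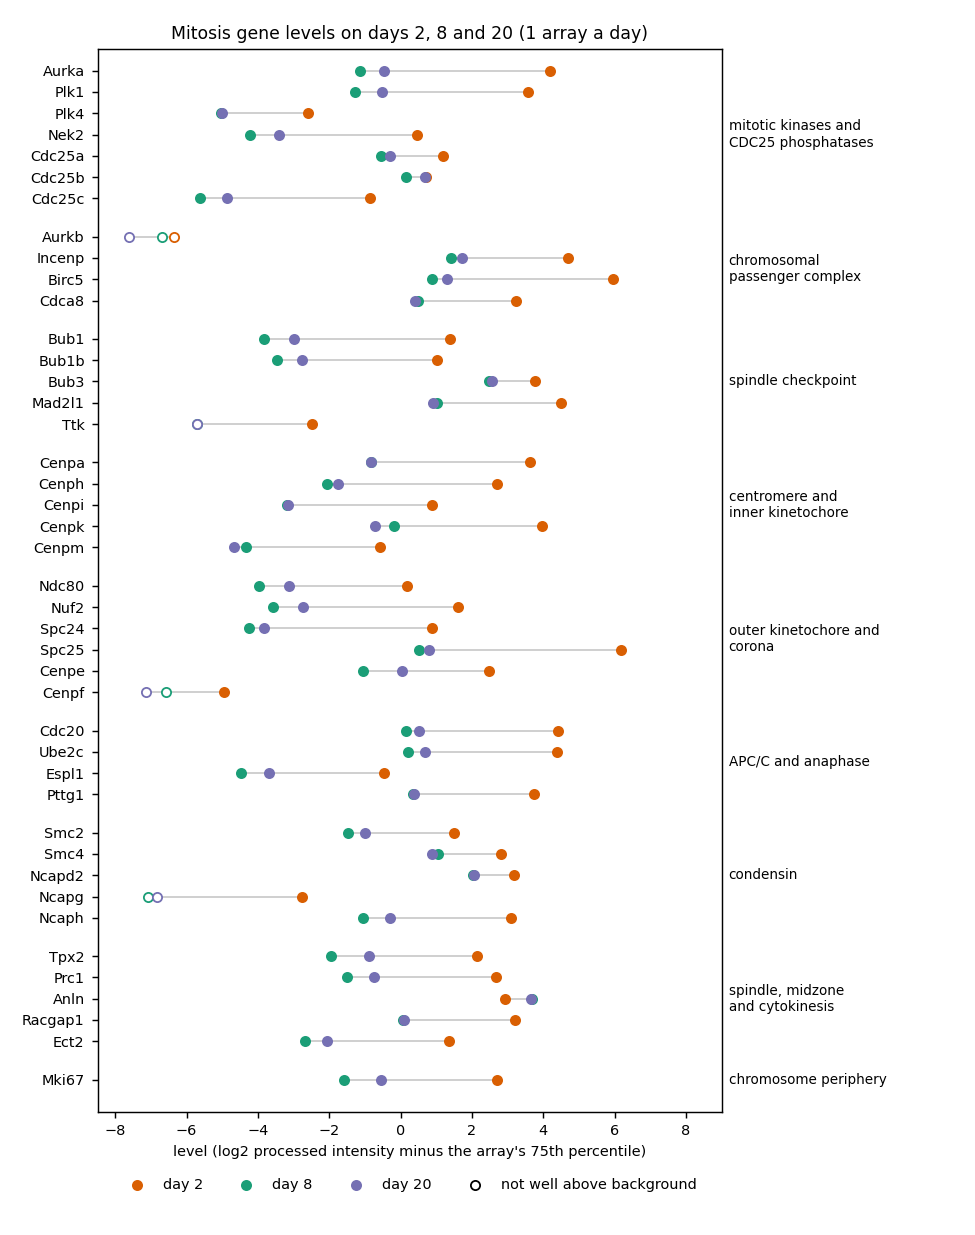
Levels of the 42 genes (rows, grouped by role) on days 2, 8 and 20, as log2 of the processed intensity minus the array's 75th percentile (x axis). Colours are the days, with 1 array each, and open circles are not well above background; for most genes the day 8 and day 20 points lie together, far below the day 2 point, but not for Anln and Cdc25b.

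Among the mitotic kinases, Aurka, which encodes the centrosomal Aurora kinase that matures spindle poles, had levels of 4.20, -1.13 and -0.46 on days 2, 8 and 20. It was 40.3-fold lower on day 8 (log2 difference -5.33, SD 0.0767). Plk1, the Polo kinase of mitotic entry and spindle assembly, was at 3.57, -1.28 and -0.51, which is 28.8-fold lower on day 8. Both were bright on day 2 and still well above background on the later days, so these are measured differences and not bounds. Nek2, the kinase that splits centrosomes, was at 0.45, -4.23 and -3.40 and lay 25.6-fold lower on day 8. Plk4, the kinase that licenses centriole duplication, was dim on every day (-2.60, -5.03 and -5.01) and was lower by a smaller margin (-2.43, SD 0.176). With normexp the day 8 differences were -3.22 for Nek2 and -1.04 for Plk4.

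The 3 phosphatases that activate cyclin-dependent kinases differed widely. Cdc25c, which acts at mitotic entry, was at -0.85, -5.63 and -4.86 on days 2, 8 and 20 and was 27.4-fold lower on day 8, but 5.97-fold lower with normexp. Cdc25a, which also acts at the start of S phase, was at 1.18, -0.56 and -0.29 and was 3.35-fold lower. Cdc25b, the phosphatase that starts cyclin-dependent kinase activation at the centrosome, was at 0.72, 0.16 and 0.70. Its day 8 difference of -0.56 (SD 0.0742) was within 2-fold. Its day 20 minus day 2 difference was -0.02, and 0.69 with spike-in scaling. Of the 7 kinases and phosphatases, 6 were thus at least 2-fold lower on day 8, with a median of -4.68 (-2.58 with normexp).

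The chromosomal passenger complex corrects wrong attachments between kinetochores and microtubules. Birc5, encoding survivin, the subunit that docks the complex at the centromere, was at 5.96, 0.87 and 1.31 on days 2, 8 and 20, or 34.0-fold lower on day 8 (-5.09), with its other 2 probes at -5.12 and -5.25. Incenp, the scaffold, was at 4.71, 1.42 and 1.72 and was 9.76-fold lower. Cdca8, encoding borealin, was at 3.25, 0.48 and 0.41 and was 6.83-fold lower. Aurkb, the kinase of the complex, has 1 probe here, and that probe was not well above background on any day (-6.35, -6.70 and -7.63), day 2 included. The catalytic subunit therefore has no usable measurement here.

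In the spindle checkpoint, Bub1, a kinase of the outer kinetochore, was printed 10 times on each array. Its spots averaged 1.39 ± 0.034, -3.84 ± 0.078 and -3.00 ± 0.056 on days 2, 8 and 20 (SD between 10 spots of 1 array), and the lowest spot of day 2 (1.33) lay far above the highest of day 8 (-3.70) and of day 20 (-2.89). It was 37.5-fold lower on day 8. Bub1b, encoding the checkpoint protein BubR1, was at 1.01, -3.47 and -2.76 and was 22.4-fold lower. Mad2l1, encoding MAD2, the protein that sequesters the APC/C activator CDC20, was at 4.50, 1.03 and 0.91 and was 11.1-fold lower, with its other 2 probes at -3.85 and -3.80 against -3.47 for the probe used. With normexp the day 8 differences were -3.86 for Bub1 and -3.42 for Bub1b.

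Bub3, which brings BUB1 and BubR1 to kinetochores, stood at 3.76, 2.47 and 2.55 on days 2, 8 and 20 and was 2.44-fold lower on day 8. Its log2 difference of -1.29 (SD 0.0737) was the smallest of the 4 measured checkpoint genes, and its probe stayed bright on all 3 days. Ttk, encoding the kinase MPS1 that starts checkpoint signalling, was well above background on day 2 only (-2.49). Taken against its own dim values on the later days, it was 9.33-fold lower on day 8 and 9.27-fold lower on day 20. These bounds equal the plain differences (-3.22, SD 0.1742, and -3.21, SD 0.1315), so they carry that technical error.

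At the centromere and inner kinetochore, all 5 genes were at least 2-fold lower on day 8, with differences of -4.78 to -3.76, or -4.32 to -2.40 with normexp. Cenpa, the histone H3 variant that marks centromeric chromatin, was at 3.64, -0.84 and -0.84 on days 2, 8 and 20, or 22.4-fold lower on day 8 and with a day 20 minus day 8 difference of 0.00 (SD 0.0867). Cenph, Cenpi, Cenpk and Cenpm belong to the constitutive centromere network that sits on CENP-A chromatin. Cenph was at 2.72, -2.06 and -1.75 and Cenpi at 0.88, -3.19 and -3.17. Cenpk was at 3.97, -0.18 and -0.72, and it had the lowest day 20 minus day 8 difference of all measured members (-0.54, SD 0.0851). Cenpm, at -0.58, -4.34 and -4.68, was likewise at its lowest on day 20. With normexp the day 8 differences were -3.20 for Cenpi and -2.40 for Cenpm.

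The outer kinetochore held the largest difference of the 38 measured members, that of Spc25. Ndc80, Nuf2, Spc24 and Spc25 encode the 4 subunits of the NDC80 complex, which grips the microtubule. Spc25 was at 6.19, 0.51 and 0.80 on days 2, 8 and 20 and was 51.3-fold lower on day 8 (-5.68, SD 0.0682). Nuf2 was at 1.62, -3.58 and -2.73 and was 36.8-fold lower. Its second probe was dim and gives only a bound of at least 2.46-fold lower. Spc24, at 0.89, -4.25 and -3.83, was 35.3-fold lower and Ndc80, at 0.18, -3.97 and -3.13, was 17.7-fold lower. All 4 subunits of the complex were therefore lower on day 8. With normexp they were at -5.55 (Spc25), -4.12 (Nuf2), -3.61 (Spc24) and -2.94 (Ndc80).

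Cenpe, the kinesin that carries chromosomes to the spindle equator, was at 2.47, -1.05 and 0.05 on days 2, 8 and 20, or 11.4-fold lower on day 8. Cenpf, a large protein of the kinetochore corona, was near background on day 2 (-4.96) and below it later, and was at least 1.74-fold lower on day 8.

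The 4 genes that act with the APC/C or in anaphase were all at least 2-fold lower on day 8. Subunits of the APC/C itself are in another list, described further below. Cdc20, the activator that the checkpoint holds back, was at 4.41, 0.15 and 0.53 on days 2, 8 and 20, or 19.2-fold lower on day 8 (-4.26, SD 0.0721). Ube2c, the ubiquitin-conjugating enzyme of the APC/C, was at 4.38, 0.20 and 0.69 and was 18.1-fold lower. Espl1, encoding separase, was at -0.46, -4.47 and -3.69 and was 16.1-fold lower, or 5.28-fold with normexp. Pttg1, encoding securin, the inhibitor of separase, was at 3.75, 0.34 and 0.36 or -3.40 on day 8 against day 2. The protease and its inhibitor were thus both lower, and all 4 genes lay between -4.26 and -3.40.

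The subunits of condensin, which compacts mitotic chromosomes, were lower by unequal amounts. Ncaph, encoding its kleisin subunit, was at 3.10, -1.04 and -0.30 on days 2, 8 and 20 and was 17.7-fold lower on day 8. Smc2, one of its ATPase subunits, was at 1.51, -1.48 and -1.004 and was 7.93-fold lower. Smc4, its partner ATPase, was at 2.82, 1.04 and 0.88 and was 3.42-fold lower. Ncapd2, a regulatory subunit, was at 3.17, 2.03 and 2.07 and was 2.22-fold lower. Its log2 difference of -1.15 (SD 0.0778) became -0.96 with quantile normalization and -0.98 with cyclic loess, just within 2-fold. Ncapg, the other regulatory subunit, was well above background on day 2 only (-2.76) and was at least 8.01-fold lower on day 8. The 4 measured subunits had a median of -2.38.

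Of the genes of the spindle, its midzone and cytokinesis, Prc1, which bundles midzone microtubules, was at 2.69, -1.52 and -0.75 on days 2, 8 and 20, or 18.4-fold lower on day 8. Tpx2, which activates Aurora A on the spindle, was at 2.14, -1.94 and -0.89 and was 16.9-fold lower, with its second, dimmer probe at -3.51 against -4.08. Ect2, the exchange factor that activates RhoA at the cell equator, was at 1.35, -2.67 and -2.07 and was 16.2-fold lower, or 10.2-fold with normexp. Racgap1, a subunit of centralspindlin, was at 3.21, 0.08 and 0.09 and was 8.75-fold lower. Mki67, encoding the Ki-67 protein that coats mitotic chromosomes and is widely used to mark dividing cells, was at 2.71, -1.58 and -0.54 and was 19.6-fold lower (-4.29, SD 0.0833), with its other probe at -4.26.

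Anln was the only measured member with a higher level on day 8 than on day 2, as 46.4% of all measured genes had. It encodes anillin, an actin-binding scaffold of the contractile ring. Its levels were 2.94, 3.69 and 3.64 on days 2, 8 and 20. The day 8 difference of 0.75 (SD 0.072) was larger than the technical SD but under 2-fold, and it was between 0.73 and 0.93 in the 9 alternative settings. On day 20 Anln was 0.71 above day 2, and at least 2-fold above it with quantile normalization (1.04), cyclic loess (1.09) and spike-in scaling (1.42). Its partners in cytokinesis Racgap1 and Ect2 were lower, at -3.13 and -4.02. Anln has 1 probe here, so no other probe bears on it.

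**Figure D2:**
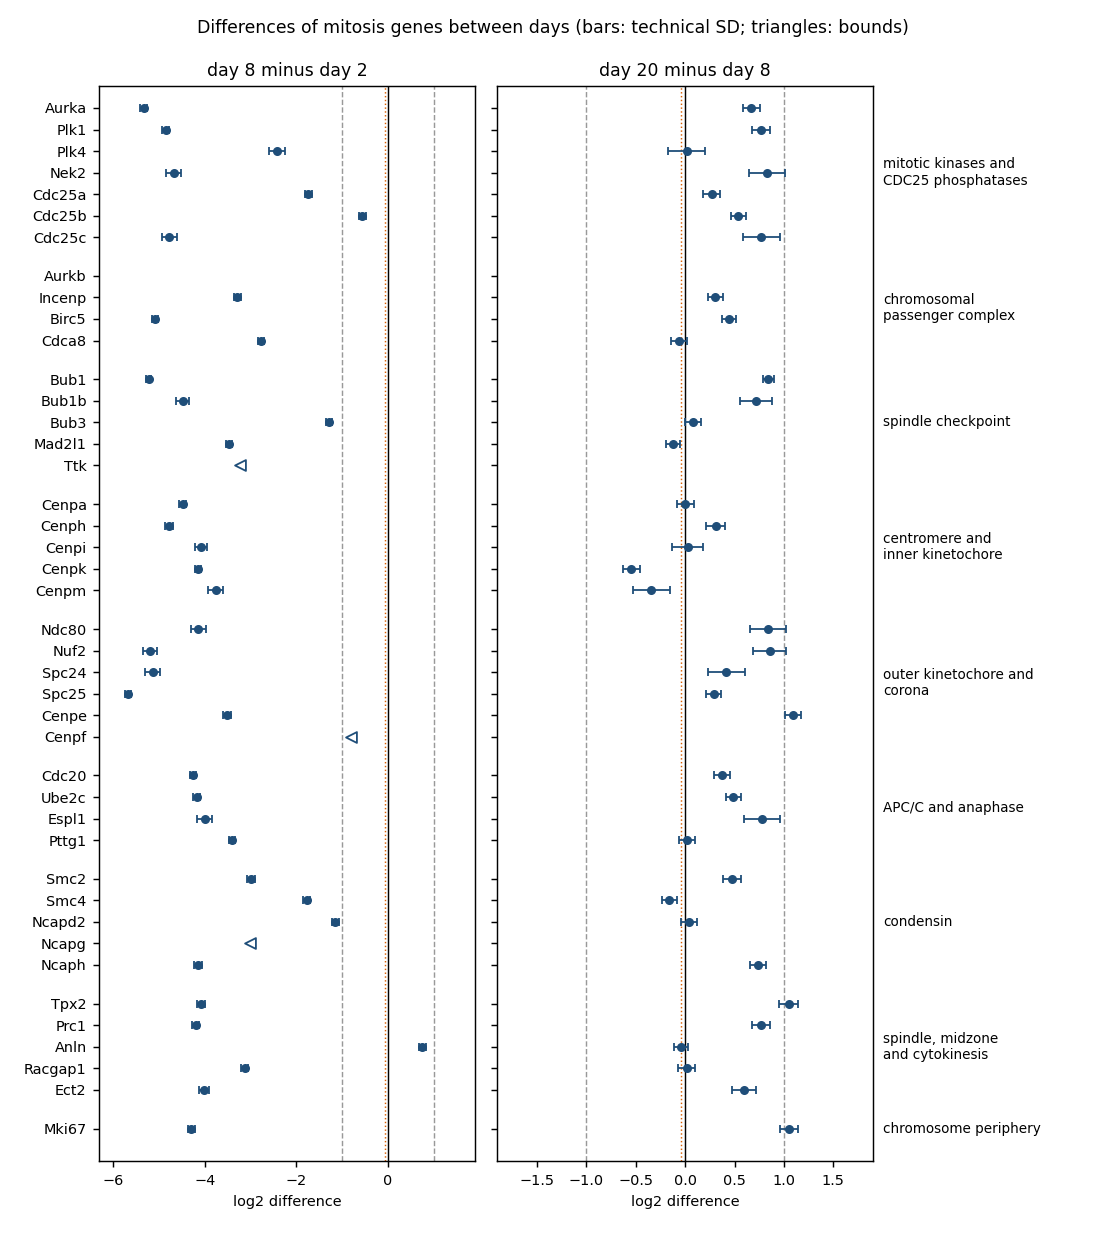
Log2 differences (x axis) of the members by role, day 8 minus day 2 on the left and day 20 minus day 8 on the right. Bars are technical SDs, triangles are bounds, dashed lines mark 2-fold and the dotted line the median of all genes; on the left 36 of 38 measured points lie beyond 2-fold on the lower side, and on the right 3 lie beyond it on the higher side and 32 above 0.

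Between day 8 and day 20 the same genes stayed low, with small differences that were mostly upward. Of the 38 measured members, 0 were at least 2-fold lower on day 20 (1.74% of all 12321 measured genes) and 3 were at least 2-fold higher (3.58%), with 0 at least 4-fold higher (0.56%). On day 20, 32 of the 38 lay above their day 8 level, against 44.9% of all genes, and the median difference was 0.43 beside -0.05 for all genes. The 6 below 0 were Cenpk, Cenpm, Smc4, Mad2l1, Cdca8 and Anln, from -0.54 to -0.04. For Mad2l1 the other 2 probes had the opposite sign (0.27 and 0.31, against -0.12). The count above 0 depended on the processing. It was 25 of 38 with normexp, where the median of all genes was -0.09, and 38 with spike-in scaling, where that median was 0.62. Markers of preadipocytes and fibroblasts also had a higher summed level on day 20 (497) than on day 8 (308), and their part in these differences was not tested.

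The 3 genes past 2-fold on day 20 were close to the threshold. Cenpe was 2.13-fold higher than on day 8 (1.09, SD 0.0839), Mki67 2.07-fold (1.05, SD 0.0897) and Tpx2 2.07-fold (1.05, SD 0.0929). The second probe of Mki67 gave 0.98 and that of Tpx2 0.52, both under 2-fold, and with normexp background correction the values were 0.91 for Cenpe, 0.88 for Mki67 and 0.75 for Tpx2. On day 20 these 3 genes were still below day 2, with differences of -2.42, -3.25 and -3.03. The next 4 genes were Nuf2 (0.85), Bub1 (0.84), Ndc80 (0.84) and Nek2 (0.83).

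The outer kinetochore had a day 20 minus day 8 median of 0.84 over 5 genes, the kinases and phosphatases 0.67 over 7 and the spindle and cytokinesis genes 0.60 over 5. The inner kinetochore had 0.00 over 5 genes, with 3 above and 2 below 0, although the inner and outer kinetochore were both lower on day 8 in all of their measured genes. With normexp the medians were 0.29, 0.26 and 0.30, and -0.17 for the inner kinetochore. The difference between these groups was not tested. Sizes also depended on the scaling. With the spike-in probes as the scale in place of the percentile, the median of all genes moved to 0.62, all 38 members lay above 0 with a median of 1.09, and 21 were at least 2-fold higher on day 20, beside 17% of all genes. Members' medians relative to all genes were 0.48 here, 0.32 with normexp and 0.34 above the lower quartile of signal. In 8 of the 9 alternative settings all 38 members have a value, and the setting that keeps genes above the lower quartile of signal has 26 of them. Over the settings that measured them, 24 of the 38 kept the sign of this difference, and 0 of the 3 stayed past 2-fold in every one.

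Against day 2, day 20 gave nearly the same picture as day 8. Of 38 measured members, 36 were at least 2-fold lower on day 20 (17% of all 11888 genes) and 0 at least 2-fold higher (15.5%), and 32 were at least 4-fold lower (3.75%). The median was -3.43, beside -0.14 for all genes. Both comparisons share the day 2 array. Spc25 was again the lowest at 42.04-fold, followed by Spc24 at 26.4-fold, Cenpk at 25.8-fold and Aurka at 25.3-fold. Over the 3 days, 33 members were lower on both later days without being 2-fold apart between them, 3 were lower on both and at least 2-fold higher on day 20 than on day 8, and 2 stayed within 2-fold throughout. A further 3, Ttk, Ncapg and Cenpf, were well above background on day 2 only, a course shared by 2.94% of the genes well above background on day 2, and Aurkb was never well above it.

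**Figure D3:**
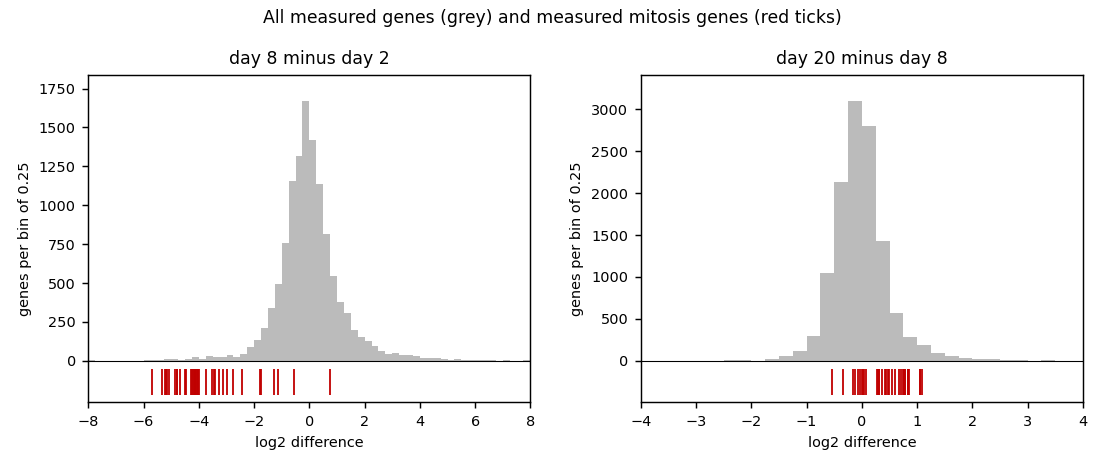
Histograms of the log2 difference (x axis) over all measured genes, as genes per bin of 0.25 (y axis), for day 8 minus day 2 and for day 20 minus day 8, with the 38 measured members as red ticks below. For day 8 the members' median is -4.11 beside -0.06 for all genes, and for day 20 it is 0.43 beside -0.05.

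Of the 42 members, 11 had more than 1 probe, which gives a check within the array. Another 11 probes were measured on both arrays in each comparison. All 11 had the same sign as the probe used on day 8 against day 2 and fell on the same side of 2-fold, with a median gap of 0.162 and a largest gap of 0.57 (Tpx2). For day 20 against day 8, where differences were small, 9 of 11 had the same sign. The second probe of Pttg1 dropped below background and gave a bound of at least 14.3-fold lower on day 8.

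Lists of neighbouring genes show how far the pattern reached. On day 8, 12.9% of all measured genes were at least 2-fold lower than on day 2 and 13.8% at least 2-fold higher. Mitotic cyclins and their regulators were at least 2-fold lower on day 8 in 12 of 14 genes (median -3.06), led by Ccnb1 (-5.23) and Ccnb2 (-4.91), the B-type cyclins. Wee1, the kinase that inhibits CDK1, and Ensa, a phosphatase inhibitor, were within 2-fold at -0.11 and -0.01. Mitotic kinesins, the motors of the spindle, were lower in all 10 measured genes (median -3.69), as for Kif20a (-3.93) and Kif2c (-3.92). Other spindle and cytokinesis genes were lower in 15 of 16 (median -3.96), with Pbk at -6.07 and Depdc1a at -5.00, and Ckap5, a microtubule polymerase, within 2-fold at -0.67.

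Kinetochore and checkpoint genes outside the 42 were also mostly lower. Of 24 other kinetochore and centromere genes, 17 were at least 2-fold lower on day 8 and 0 higher (median -2.07). Ska1, which couples kinetochores to moving microtubules, was at -6.26 and Nsl1, of the MIS12 complex, at -4.37. Of 11 other checkpoint genes, 9 were lower (median -2.77), with Haspin, the histone H3 kinase that recruits the passenger complex, at -4.59 and Sgo1, the protector of centromeric cohesin, at -4.57. Tpr, a nuclear pore protein, and Mad2l1bp, an inhibitor of MAD2, were within 2-fold at -0.06 and -0.44.

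The APC/C and cohesin lists, which work beside these proteins, were mostly within 2-fold. Of 16 measured APC/C subunits and partners, 4 were lower (median -0.45), beside 12.9% of all genes. These were Fbxo5, an inhibitor of the APC/C, at -2.79, Ube2s, its chain-elongating enzyme, at -2.36, and the subunits Anapc16 (-1.18) and Cdc26 (-1.03). Of 13 cohesin genes, 2 were lower (median -0.38), a share near the 12.9% of all genes. They were Esco2 at -3.28 and Cdca5, encoding sororin, at -2.94, both of which act in cohesion during S phase and G2. Top2a, the topoisomerase of dividing cells, was at -4.59, while its paralog Top2b was at -0.15. In condensin II, Ncapg2 was at -4.34 and Ncapd3 and Ncaph2 were within 2-fold at -0.96 and -0.72. Of 5 measured centriole genes, Stil was lower (-2.11) and 4 were within 2-fold, Cep152 (-0.75), Cep192 (-0.53), Cenpj (-0.27) and Cep63 (0.54). Sass6, the scaffold of the new centriole, was well above background on day 2 but not on day 8 and was at least 5.50-fold lower as a bound.

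Paralogs of the mitotic kinases passed 2-fold in either direction, beside 12.9% lower and 13.8% higher among all genes. Of 11 measured Polo, Aurora and NEK paralogs, 2 were at least 2-fold lower on day 8, Nek6 (-1.54) and Plk3 (-1.38), and 3 were higher, among them Plk2 (1.34) and Nek8 (1.18). The median was 0.38, beside -0.06 for all genes. Plk2 was also 1.36 higher on day 20 than on day 8, and Aurkc was 1.17 higher on day 8 than on day 2.

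Replication genes were lower in 33 of 36 cases on day 8 (median -2.04), with 19 at least 4-fold lower, led by Rrm2 (-5.66) and Tk1 (-5.03), enzymes of nucleotide supply. The 3 within 2-fold were Cdc6 (-0.83), Rfc1 (-0.52) and Gins3 (-0.08). Set beside them, 32 of 38 members were at least 4-fold lower. No test was possible of whether the lists differ. CDK inhibitors and RB had 0 of 8 lower and 3 higher (median 0.91), beside 12.9% and 13.8% of all genes. Cdkn2b, encoding p15, was at 2.17 and Cdkn2c, encoding p18, at 1.20. The 5 within 2-fold were Rb1 (0.92), Cdkn1b (0.91), Cdkn1c (0.63), Cdkn2d (0.17) and Cdkn1a, encoding p21, at -0.78.

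Among the activators of mitotic transcription, Foxm1, a forkhead factor, was at -3.01 on day 8 and Mybl2, encoding B-MYB, at -3.55. In all, 4 of 15 genes of this list were lower and 1 higher (median -0.59), beside 12.9% and 13.8% of all genes. The other 10 were within 2-fold. The one higher was Rbl2, encoding the pocket protein p130 of the repressive DREAM complex, at 1.51. The subunits Nfya, Nfyb and Nfyc of the factor that binds CCAAT boxes were at -0.96, -0.54 and -0.01.

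On day 20 against day 8, 6 of the 183 measured genes of these 13 lists were at least 2-fold higher (3.28%, beside 3.58% of all genes) and 0 lower. They were Ccna2 (1.29), encoding cyclin A2, Top2a (1.03), the kinesin genes Kif23 (1.56) and Kif4 (1.05), Fam83d (1.05), a spindle protein, and Plk2 among measured genes. Iqgap3 was at least 2.53-fold higher as a bound. The kinesin list had a median of 0.71 over 9 genes and the other spindle list 0.49 over 16, while replication genes had -0.03 over 36 and APC/C subunits -0.20 over 16.

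**Figure D4:**
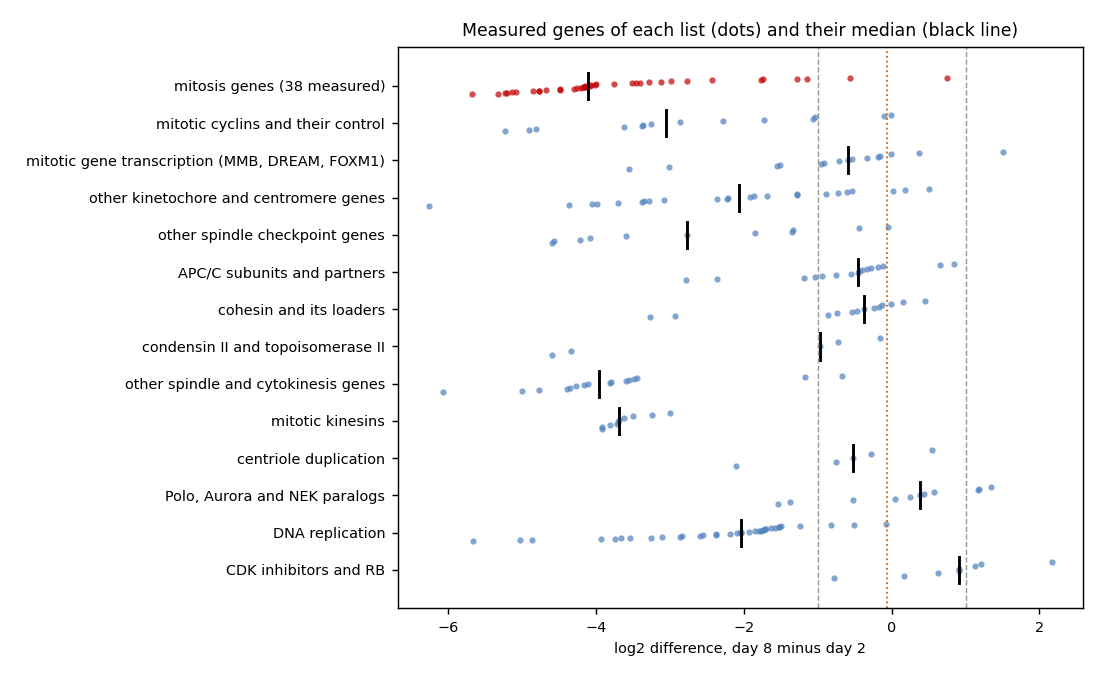
Log2 difference, day 8 minus day 2, for each measured gene of the mitosis set and of 13 neighbouring lists (points), with the list median (bar). Dashed lines mark 2-fold and the dotted line the median of all genes; mitosis, spindle and kinesin genes lie near -4, and APC/C subunits, cohesin and paralogs near 0.

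Promoters of mitotic genes are known to carry CCAAT boxes, bound by NF-Y, and a cell cycle homology region (CHR), the element through which the DREAM and MuvB complexes repress or activate G2 and M phase genes. RefSeq windows of 300 bases (250 before to 50 after the gene start, assembly GRCm38.p6) were found for 36 of the 42 members. They were searched on both strands for TTTGAA, the CHR letters used here, and for CCAAT. The 6 windows below show the arrangement in strongly lower genes (Plk1, Cdc20, Spc25 and Prc1), in the gene that was not lower (Anln), and in a lower gene with neither motif (Mad2l1). Each is written 5′ to 3′ on the gene's strand, with matches to either motif on either strand in capitals.
Plk1, chr7:122159185-122159484, plus strand: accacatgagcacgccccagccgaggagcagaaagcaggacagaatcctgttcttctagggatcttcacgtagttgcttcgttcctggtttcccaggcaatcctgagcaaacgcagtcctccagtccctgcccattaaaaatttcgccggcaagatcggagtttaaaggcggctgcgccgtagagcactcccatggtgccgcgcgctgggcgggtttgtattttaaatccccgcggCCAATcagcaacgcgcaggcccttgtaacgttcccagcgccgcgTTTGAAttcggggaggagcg
Cdc20, chr4:118437294-118437593, minus strand: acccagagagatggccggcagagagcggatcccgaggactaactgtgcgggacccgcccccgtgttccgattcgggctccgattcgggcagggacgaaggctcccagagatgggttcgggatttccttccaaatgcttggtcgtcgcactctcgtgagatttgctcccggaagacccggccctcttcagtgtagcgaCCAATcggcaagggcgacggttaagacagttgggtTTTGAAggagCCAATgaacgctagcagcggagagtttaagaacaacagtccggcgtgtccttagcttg
Spc25, chr2:69206164-69206463, minus strand: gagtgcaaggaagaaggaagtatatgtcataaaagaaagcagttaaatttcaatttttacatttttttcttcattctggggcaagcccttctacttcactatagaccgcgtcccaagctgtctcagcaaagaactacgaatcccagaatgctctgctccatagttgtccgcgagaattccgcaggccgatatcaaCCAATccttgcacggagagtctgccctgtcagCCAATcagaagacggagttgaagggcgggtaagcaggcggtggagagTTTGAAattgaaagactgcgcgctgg
Prc1, chr7:80294201-80294500, plus strand: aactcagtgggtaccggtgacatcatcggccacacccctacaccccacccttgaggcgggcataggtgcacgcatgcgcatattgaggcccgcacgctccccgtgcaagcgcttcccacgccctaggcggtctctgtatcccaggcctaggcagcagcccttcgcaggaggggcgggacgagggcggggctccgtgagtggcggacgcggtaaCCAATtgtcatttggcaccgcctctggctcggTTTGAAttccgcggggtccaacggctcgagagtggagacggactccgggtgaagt
Anln, chr9:22389157-22389456, minus strand: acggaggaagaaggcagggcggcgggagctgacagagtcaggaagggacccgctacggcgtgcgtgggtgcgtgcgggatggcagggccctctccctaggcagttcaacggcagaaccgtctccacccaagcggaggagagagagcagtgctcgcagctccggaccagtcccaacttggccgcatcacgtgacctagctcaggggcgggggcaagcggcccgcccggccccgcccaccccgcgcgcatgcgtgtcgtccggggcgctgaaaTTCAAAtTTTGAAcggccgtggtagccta
Mad2l1, chr6:66534971-66535270, plus strand: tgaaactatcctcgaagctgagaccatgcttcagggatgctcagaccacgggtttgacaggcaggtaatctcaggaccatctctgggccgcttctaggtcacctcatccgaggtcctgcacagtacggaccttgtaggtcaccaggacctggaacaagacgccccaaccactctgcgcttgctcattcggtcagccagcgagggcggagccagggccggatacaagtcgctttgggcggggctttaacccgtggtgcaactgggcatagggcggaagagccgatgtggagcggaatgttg

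In the Plk1 window the CHR letters begin at position 30 and the CCAAT letters at -14, counted from the gene start. Spc25 has the CHR letters at 24 and CCAAT at -55 and -23. In Cdc20 the order is CCAAT, CHR, CCAAT, at -53, -18 and -8. Prc1 has CCAAT at -37 and the CHR letters at -5. Anln has 2 CHR matches 1 base apart, at 21 on the opposite strand and at 28 on its own strand, and no CCAAT.

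Over the 36 windows, 21 (58.3%) held the CHR letters, against 18.1% of the windows of all 27018 genes. CCAAT was in 28 (77.8%), against 37.9%, and both were in 19 (52.8%), against 7.12%. All 21 windows with the CHR letters also held GGCG somewhere on either strand, as did 2300 of the 4892 windows with the CHR letters among all genes. The shares with both (58.3% of the 36, against 8.51% of all windows) include the CHR difference given above. Windows with GGCG were not counted apart from the CHR letters, and base composition was not matched. Whether GGCG goes with the CHR letters was therefore not tested. GGCG is the core of the cell cycle-dependent element, but its distance from the CHR letters was not examined. Of the 25 CHR matches, 20 lay within 50 bases of the gene start, with a median position of 5 bases after it. Positions in windows of other genes were not examined. Neither motif was found in 6 windows (16.7%, against 51.1%), those of Plk4, Birc5, Mad2l1, Nuf2, Pttg1 and Ncaph. A match of this kind is a run of letters and not a shown binding site.

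Lower genes were found in each motif class. The 16 measured genes with both motifs had a day 8 minus day 2 median of -4.19 and all 16 were at least 2-fold lower, from -5.68 (Spc25) to -1.15 (Ncapd2). The 6 with neither had a median of -3.81 and all 6 were lower. Of the 9 with CCAAT alone, 8 were lower (median -4.07), the exception being Cdc25b. The 2 with CHR alone were Ndc80 at -4.14 and Anln at 0.75. The shares in other lists are given as a description, beside 18.1% of all windows for the CHR letters and 7.12% for both motifs. The CHR letters stood in 10 of 11 kinesin windows (90.9%). They stood in 11 of 16 windows of other spindle and cytokinesis genes (68.8%) and 5 of 10 of other checkpoint genes (50%). In replication windows they stood in 4 of 28 (14.3%), near the share of all windows. Both motifs stood in 1 of 16 windows of APC/C subunits and partners (6.25%), also near that of all windows.

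**Figure D5:**
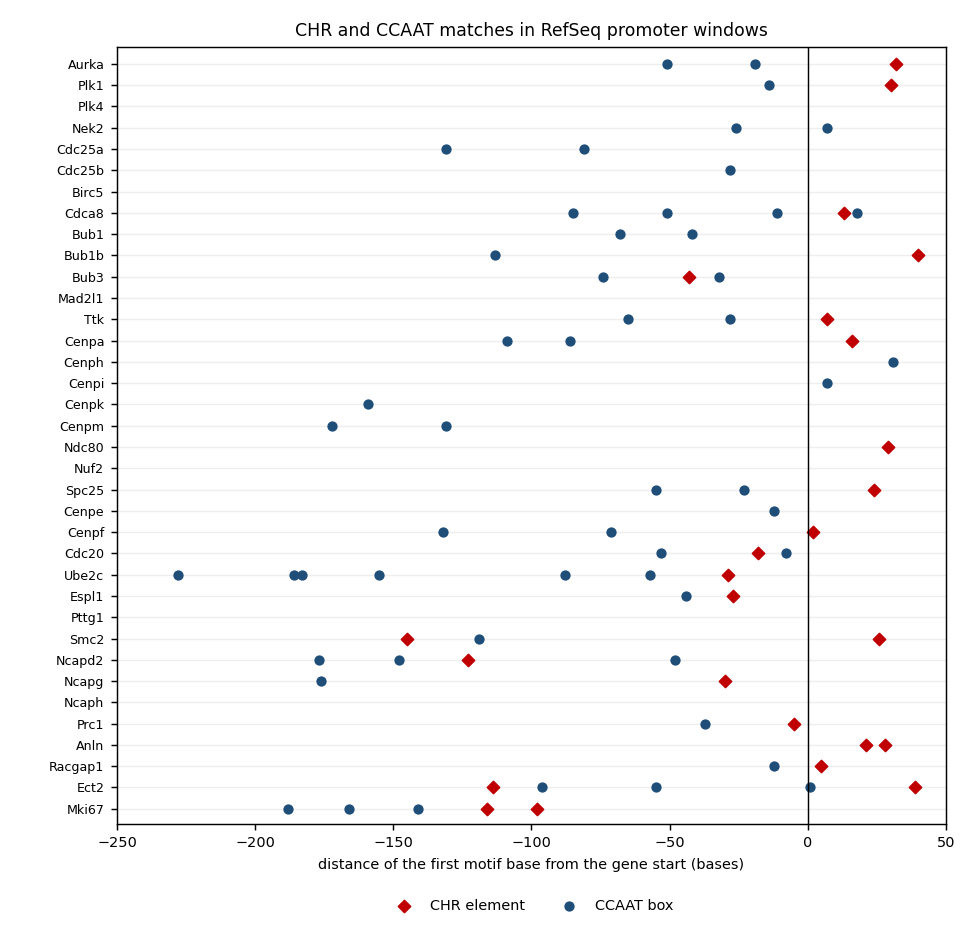
Positions of CHR (TTTGAA) and CCAAT matches in the members' promoter windows, in bases from the gene start, 1 gene a row. Of the CHR matches, 20 of 25 lie within 50 bases of the start, and CCAAT matches lie mostly before it. The window itself holds 250 bases before the start and 50 after it. Positions in windows of other genes were not examined for either motif.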

How the data were processed

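The 3 arrays held cyanine-3 labelled RNA of 3T3-L1 cells, extracted with Trizol per the labels' protocols. The deposited intensity is the linear brightness of a spot, and the submitters' processing notes name Agilent Feature Extraction 10.7.1.1. Per the file headers, the processed intensity used here already has its background removed, with no scaling between arrays. The deposited files also mark control, outlier and saturated spots and those well above background, per the file headers. The series table holds log2 values, which the authors deposited as log2 processed intensity shifted by 1 constant per array (-9.37, -9.31 and -9.86 for days 2, 8 and 20), within 0.01 for 100% of probes. Its column medians were -4.80, -4.69 and -4.89, so its scale, centring and direction are known. It served as an alternative.

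Processed intensities were divided by the 75th percentile of their own array (662, 636 and 927 on days 2, 8 and 20) over non-control probes and put on a log2 scale, with outlier spots left out and spots of a probe averaged. Of 39429 non-control probes, 26579 were named by RefSeq accession through a gene table of assembly GRCm38.p6. A gene took its brightest probe by the mean over arrays, and other probes are given where they differ. A difference is later minus earlier day and counts as measured where both arrays had the probe well above background. Otherwise a bound was taken against the dim value or the lowest level well above background on that array, whichever was higher. The technical SD comes from probes printed 10 times, by signal in 8 bins, and covers only variation among spots on 1 array. The arrays shared 1 slide and 1 scan. Culture, extraction and labelling batches are not recorded in the sources used here, and with 1 array a day they cannot be told apart from the day. The number of arrays limits the precision.

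Alternatives were the percentile over detected probes, quantile normalization and cyclic loess (limma 3.58.1, R 4.3.3), scaling on spike-in probes, normexp with offset 50, the series table, other filters on dim probes, the mean over probes and a 4-fold threshold. Normexp used the median signal, because the files as read here have no mean signal column. Its offset of 50 is added to every intensity, which narrows the folds of dim probes. Python 3.11.15 with pandas 2.3.3 and numpy 2.4.6 did the rest, and the counting was tested on simulated data. For promoters, 4 members with several RefSeq windows took the first one listed. All 42 members are named. Of other lists, the 2 genes with the largest difference in each direction are named, with those within 2-fold where 5 or fewer, and further names were chosen after their values were seen. Members and lists were chosen with earlier results of these data known.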

Additional observations from a re-analysis of the deposited data

How the results depend on the processing

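With 1 array a day, no replicate could be left out and the spread between cultures is unknown. No paired analysis was possible because each day has 1 array and the labels carry no replicate numbers. All 38 measured members have a value in 8 of 9 alternative settings, and 34 (26 for day 20 against day 8) in the setting above the lower quartile of signal. On day 8 against day 2, all 38 kept their sign wherever measured and 35 of the 36 lower ones stayed at least 2-fold lower, the exception being Ncapd2. With normexp, 12 members' folds moved by over 1.5 times. The median of -4.11 became -3.98 with the percentile over detected probes, -4.02 after quantile normalization, -3.997 after cyclic loess and -3.29 with normexp. On day 20 against day 8, the 3 members at least 2-fold higher became 21 with spike-in scaling, 0 with normexp and 0 at 4-fold. The median of 0.43 became 0.53 with cyclic loess, 1.09 with spike-in scaling, 0.23 with normexp, 0.34 without a filter on dim probes and 0.31 above the lower quartile of signal. On day 20 against day 2, 33 of the 36 lower members stayed at least 2-fold lower wherever measured, the exceptions being Cdc25a, Bub3 and Ncapd2, and 1 member was at least 2-fold higher (Anln) with 3 of them (quantile, cyclic loess and spike-in). The median of -3.43 became -3.23 with the percentile over detected probes, -3.34 after quantile normalization, -3.27 after cyclic loess, -2.72 on the spike-in scale and -3.04 with normexp. Apart from the narrowing that the normexp offset brings to dim probes, the causes of these shifts were not tested. The 4 members without a measured difference, Aurkb, Ttk, Ncapg and Cenpf, are limited by signal near background.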
